A study of Homo sapiens with 22 samples.

Results

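The genes described here are 7 members of the E2F and retinoblastoma network: E2F1, E2F2 and E2F3, which activate transcription, TFDP1, their DNA-binding partner, RB1, the pocket protein that restrains them, and E2F7 and E2F8, which repress transcription. The genes were chosen by name, with earlier results of these data known, and their peak regions by position. A peak region belonged to a gene when it overlapped the gene's hg19 span widened by 5 kb on either side. Across 8 deposited peak lists this gave 254 regions of 291055. The lists come from ChIP-seq of 22Rv1, a human prostate cancer line, with 1 library per group and 1 list per library. E2F3 was mapped in cells overexpressing the linker histone variant H1-10 (H1-10 OE) and in control cells (Ctrl), and so were H3K27me3, the mark that Polycomb leaves on silenced chromatin, and Pol2S5p, the form of RNA polymerase II that carries phosphate on serine 5 and is found at initiating genes. Pol2S5p was also mapped with an siRNA against E2F3 (siE2F3) and with a control siRNA (siCtrl). The peak names of these last lists carry the label of H1-10 overexpression, which their sample labels do not give. The other 14 of the 22 samples, 10 inputs and 4 precipitations of H1-10, were not analysed here. The labels do not say how H1-10 was overexpressed, whether 1 clone or a pool of cells was used, or how far the siRNA lowered E2F3. No expression values were used, so the level of E2F3 in these cells was not checked. The lists name no genes and no hg19 annotation was used, so the markers of the prostate line were not looked up.

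Most E2F proteins bind promoters as dimers with a DP partner such as TFDP1, and the activators switch on genes of DNA synthesis and mitosis. The RB1 protein binds the activators and holds them inactive until cyclin-dependent kinases phosphorylate it late in G1. E2F7 and E2F8 bind DNA without a DP partner and shut E2F targets off later in the cycle. Several of these genes are themselves E2F targets, which makes the network a set of feedback loops. E2F3 is made in a long form, E2F3a, and a shorter form, E2F3b, which starts from a promoter inside the gene. Loss of RB1 is a known event in advanced prostate cancer.

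The promoter windows of the members are shown because most E2F3 regions described here lay at the gene starts. RefSeq windows of GRCh38.p14 run 250 bases before to 50 bases after a listed start. Of the 7 members, 6 had an entry. The window listed for RB1 belongs to a start 173 kb inside the gene and was not used, and E2F8 is named only. E2F3 has 2 listed starts, the second 1735 bp after the first. Capitals mark the E2F words TTTCGCG and TTTGGCG, searched on both strands, where the reverse strand reads CGCGAAA and CGCCAAA. In the windows shown their matches do not overlap one another or those of the second word searched, CCAAT (either strand). The words were chosen after the windows were seen. No other form of the E2F word was searched, so the counts are not of all possible E2F sites. In GRCh38.p14 the windows lie at chr20:33686336-33686635 (minus strand, E2F1), chr1:23531184-23531483 (minus, E2F2), chr6:20401629-20401928 (plus, first start of E2F3), chr6:20403364-20403663 (plus, second start of E2F3), chr13:113584503-113584802 (plus, TFDP1) and chr12:77065520-77065819 (minus, E2F7).
E2F1: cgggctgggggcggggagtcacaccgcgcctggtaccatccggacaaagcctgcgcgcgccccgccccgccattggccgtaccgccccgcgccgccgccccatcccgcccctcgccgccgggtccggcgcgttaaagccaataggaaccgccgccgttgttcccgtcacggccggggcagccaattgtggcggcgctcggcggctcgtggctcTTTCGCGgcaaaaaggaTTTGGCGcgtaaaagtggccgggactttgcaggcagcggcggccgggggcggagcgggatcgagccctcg
E2F2: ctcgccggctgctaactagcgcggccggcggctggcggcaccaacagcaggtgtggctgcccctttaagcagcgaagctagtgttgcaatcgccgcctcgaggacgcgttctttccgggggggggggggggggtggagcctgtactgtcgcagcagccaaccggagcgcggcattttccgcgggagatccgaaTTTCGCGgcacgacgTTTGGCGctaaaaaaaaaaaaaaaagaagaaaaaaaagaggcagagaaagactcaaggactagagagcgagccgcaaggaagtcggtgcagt
E2F3 first start: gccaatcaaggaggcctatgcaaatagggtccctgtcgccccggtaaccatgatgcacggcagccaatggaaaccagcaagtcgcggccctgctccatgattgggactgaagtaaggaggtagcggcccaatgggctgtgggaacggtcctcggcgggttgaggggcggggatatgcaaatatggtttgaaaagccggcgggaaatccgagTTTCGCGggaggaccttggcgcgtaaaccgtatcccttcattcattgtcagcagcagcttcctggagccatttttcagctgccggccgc
E2F3 second start: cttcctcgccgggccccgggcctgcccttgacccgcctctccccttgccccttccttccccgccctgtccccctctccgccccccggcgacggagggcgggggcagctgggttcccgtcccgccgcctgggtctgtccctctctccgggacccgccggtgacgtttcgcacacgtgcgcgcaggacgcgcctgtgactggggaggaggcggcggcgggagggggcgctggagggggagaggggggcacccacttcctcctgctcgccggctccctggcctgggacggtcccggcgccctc
TFDP1: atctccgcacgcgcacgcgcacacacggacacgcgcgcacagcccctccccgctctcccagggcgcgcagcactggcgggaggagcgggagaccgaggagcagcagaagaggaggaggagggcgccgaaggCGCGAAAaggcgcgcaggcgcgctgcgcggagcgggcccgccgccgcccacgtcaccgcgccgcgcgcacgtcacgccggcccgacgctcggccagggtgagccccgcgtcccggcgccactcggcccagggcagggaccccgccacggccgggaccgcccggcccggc
E2F7: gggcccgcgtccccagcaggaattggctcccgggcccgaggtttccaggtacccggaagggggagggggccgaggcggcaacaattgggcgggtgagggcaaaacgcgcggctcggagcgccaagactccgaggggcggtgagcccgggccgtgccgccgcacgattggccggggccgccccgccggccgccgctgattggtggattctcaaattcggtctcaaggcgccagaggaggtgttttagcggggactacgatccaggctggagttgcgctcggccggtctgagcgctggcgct

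An E2F word stood in 4 of the 6 windows shown, against 1120 of all 35116 windows in the table (3.19%). Since the words were chosen after these windows were seen, the comparison does not measure enrichment. Of the windows shown 2 belong to E2F3, and RB1 and E2F8 are not among them. E2F1 held 2, starting at -37 and -20 from its listed start, and E2F2 also held 2, at -57 and -42, so that each gene carries both words close together. The first start of E2F3 held 1 at -39. TFDP1 held 1 on the reverse strand at -119. The windows of E2F7 and of the second start of E2F3 held none of these letters. CCAAT, the core of the NF-Y box, was found 3 times in E2F1, 4 times in the first E2F3 window and 4 times in E2F7, and not in E2F2, TFDP1 or the second E2F3 window. It occurs in 34.6% of all windows. A match describes the letters of the window and is not evidence of binding.

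Depth and replication limit all comparisons. The E2F3 list held 4296 regions in H1-10 OE and 22988 in Ctrl. The Pol2S5p lists held 40626 regions in H1-10 OE, 35493 in Ctrl, 83067 with siE2F3 and 83650 with siCtrl, and the H3K27me3 lists 18395 in H1-10 OE and 2540 in Ctrl. Read depth is unknown here, so library, list length and treatment cannot be told apart, and with single libraries the spread between replicates is not known and no test was run. Fold enrichments and significance values are the authors' own, set against the background of their caller. They describe and rank regions within a list by -log10 p, with rank 1 the strongest, and neither a fold nor a rank in lists of such unequal length shows a change. Intervals are 95% Wilson intervals of counting error, and regions at 1 gene are not independent. Distances are in base pairs from the gene start, the 5′ edge of the hg19 span, counted along transcription. A region is at the start when it meets the 1 kb on either side of it. The share of all genes with such a region was not counted for any list. Counts of genes with or without a region therefore describe these genes only.

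**Figure D1:**
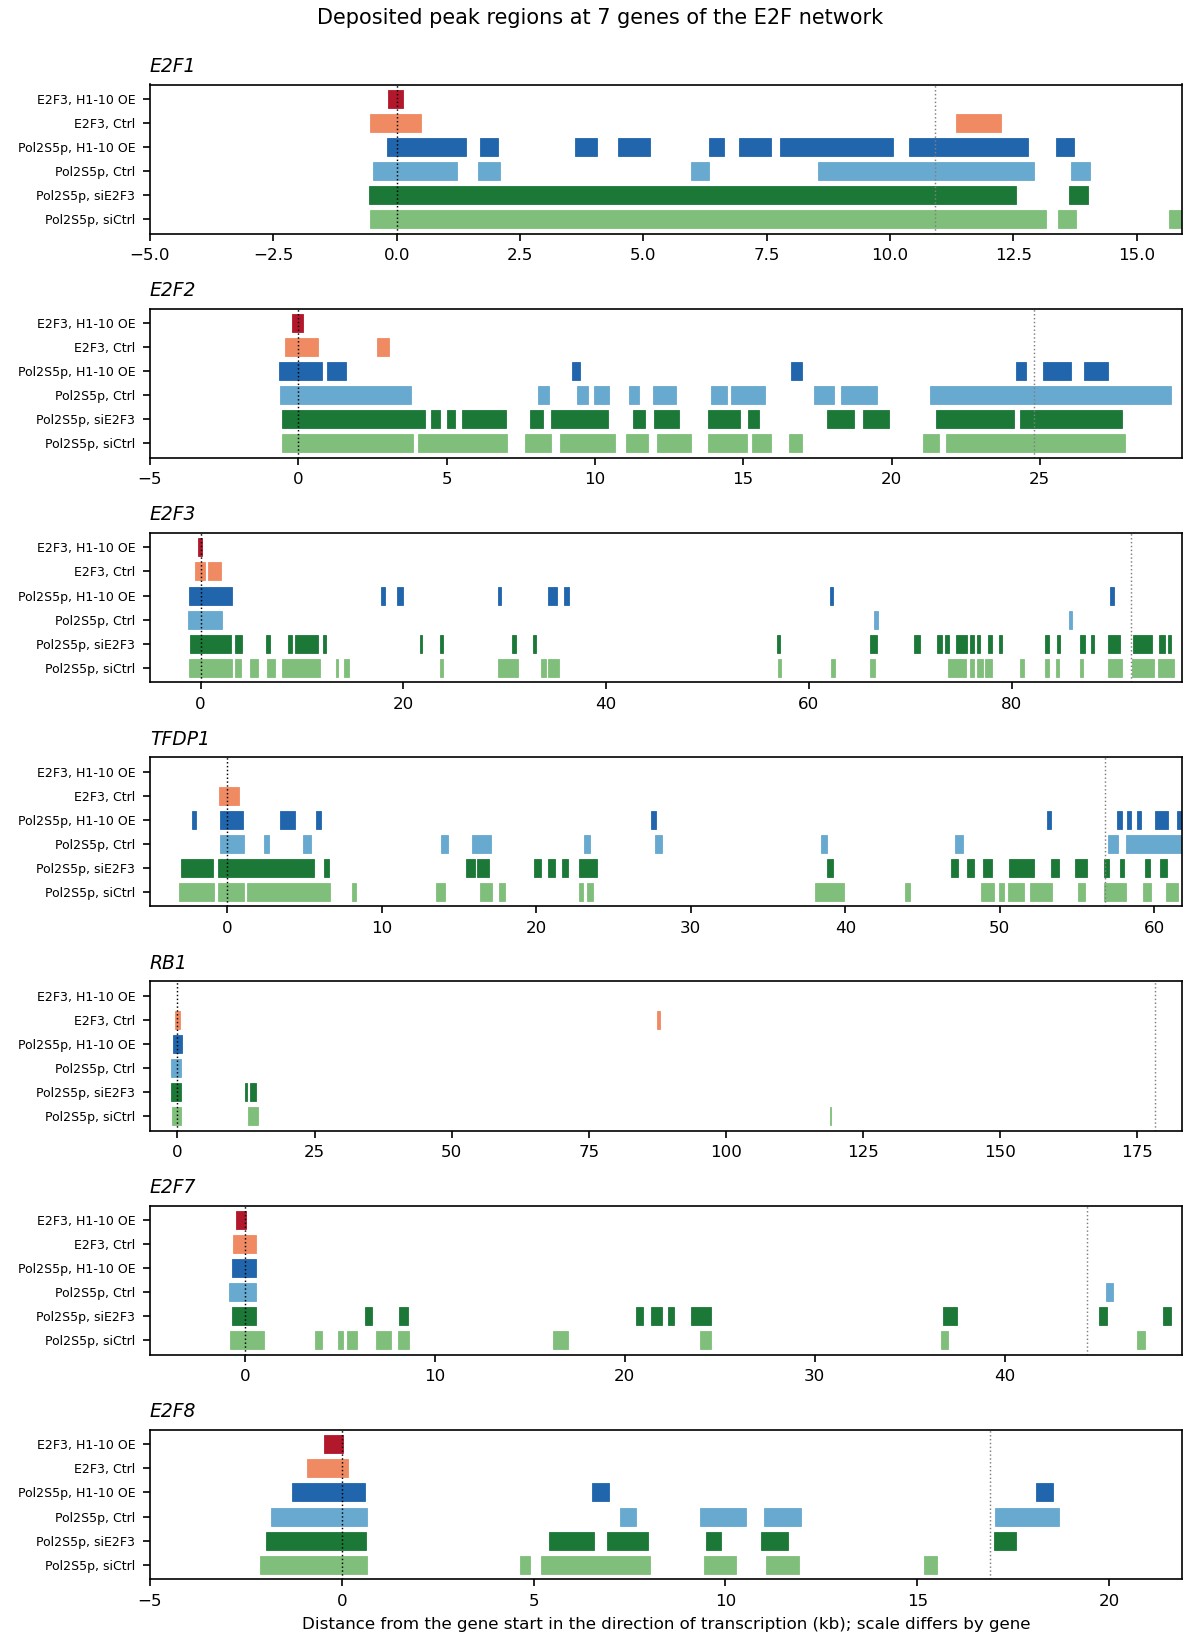
Peak regions (bars) of the E2F3 and Pol2S5p lists at the 7 genes, by distance from the gene start in kb, with the gene start and end as dotted lines and a scale that differs by gene. E2F3 regions sit at the starts of 5 genes in H1-10 OE and of all 7 in Ctrl, with 3 elsewhere in Ctrl, while Pol2S5p regions also cover gene bodies and the stretch past the gene end.

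E2F3 regions lay at the starts of its own family in both groups, at fewer genes and with less width in H1-10 OE. A region lay at the start of 5 of the 7 genes in H1-10 OE, namely E2F1, E2F2, E2F3, E2F7 and E2F8, and of all 7 in Ctrl. TFDP1 and RB1 had none in H1-10 OE. The folds of the H1-10 OE regions at E2F1, E2F2, E2F7 and E2F8 were below the median of that list, 5.91, and that at E2F3 was above it (6.89). By -log10 p the 5 regions stood between 53.9% (E2F7) and 95.6% (E2F3) of the list. The regions at these genes covered 2.13 kb in H1-10 OE and 10.8 kb in Ctrl, a ratio of 0.197, where the whole lists covered 1.95 Mb in H1-10 OE and 15.6 Mb in Ctrl, a ratio of 0.125. Which of these ratios was the lower depended on the setting: with the spans not widened the genes covered 0.544 kb in H1-10 OE and 5.82 kb in Ctrl, a ratio of 0.0935, and with the 4296 strongest regions of each list the whole lists had a ratio of 0.421, above that at the genes. All 5 H1-10 OE regions overlapped a Ctrl region, so 0 of 5 were in H1-10 OE only (0% to 43.4%), against 85.9% of the whole H1-10 OE list. In Ctrl only were 6 of 11 regions (54.5%, 28.0% to 78.7%), against 97.4% of the whole Ctrl list.

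Sharing was more frequent among strong Ctrl regions. The start regions of E2F1, E2F2, E2F3, TFDP1 and E2F8 ranked among the strongest 1% of the Ctrl list. Of the 230 regions in that class, 175 (76.1%, 70.2% to 81.1%) met an H1-10 OE region. In the strongest 10% of Ctrl 388 of 2298 (16.9%) did so, and in the weaker 50% 122 of 11494 (1.06%). In the H1-10 OE list the strongest 1% held 43 regions, of which 13 (30.2%) met a Ctrl region. The shares in that list were 30.4% in the strongest 10% and 5.78% in the weaker 50%. The 5 shared regions do not meet a demand for 50% reciprocal overlap, under which 5 of 5 were in H1-10 OE only and 11 of 11 in Ctrl only. That follows from width, since each H1-10 OE region lay wholly inside its Ctrl region and took up 27.8% to 44.9% of it. The shares of the whole lists under that demand were not computed.

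Among the activators, E2F1 (chr20:32263292-32274210, minus strand) had an H1-10 OE region of 289 bp with its summit at 5 bp, a fold of 4.11 and rank 988 of 4296. In Ctrl the region was 1039 bp wide with its summit at -6 bp, a fold of 114 and rank 32 of 22988. The summits were 11 bp apart. E2F2 (chr1:23832920-23857712, minus strand) had a region of 383 bp with its summit at 26 bp, a fold of 4.55 and rank 1540 in H1-10 OE. Its Ctrl region was 1105 bp wide with its summit at -69 bp, a fold of 53.4 and rank 191. At both genes the regions contain the gene start in either group.

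E2F3 (chr6:20402137-20493945, plus strand) had an E2F3 region at its own start in both groups. The H1-10 OE region was 452 bp wide with its summit at -67 bp, a fold of 6.89 and rank 189, the strongest of the 5 genes in that list. The Ctrl region was 1006 bp wide with its summit at -81 bp, a fold of 67.9 and rank 95. A second region at E2F3 appeared in Ctrl only, 1323 bp wide from 726 to 2048 bp after the start, with its summit at 1596 bp, a fold of 31.9 and rank 1913. The second start that RefSeq lists for E2F3 lies 1735 bp after the first in GRCh38, in whose window no E2F word was found. The builds were not converted, so the overlap of this region with the second promoter was not measured.

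TFDP1 (chr13:114239003-114295788, plus strand), the DP partner, had a Ctrl region of 1263 bp at its start, with its summit at -56 bp, a fold of 72.7 and rank 97. No H1-10 OE region lay anywhere in its span. Of the 5 genes in the strongest 1% of the Ctrl list, TFDP1 was the only one without an H1-10 OE region. Over that whole class 175 of 230 regions (76.1%) met one, so the lack of one is not particular to TFDP1. RB1 (chr13:48877883-49056026, plus strand) had the lowest ranked start region of the 7 in Ctrl, 1022 bp wide with its summit at -15 bp, a fold of 23.5 and rank 2905, and none in H1-10 OE.

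Of the repressors, E2F7 (chr12:77415026-77459360, minus strand) had an H1-10 OE region of 523 bp, the widest in that list among these genes, with its summit at -103 bp, a fold of 3.21 and rank 1982. Its Ctrl region was 1184 bp wide with its summit at -38 bp, a fold of 51.7 and rank 260. E2F8 (chr11:19245610-19262507, minus strand) had an H1-10 OE region of 487 bp with its summit at -231 bp, a fold of 4.34 and rank 744. Its Ctrl region was 1087 bp wide with its summit at -190 bp, a fold of 110 and rank 20, the strongest of the 7 genes. Summits at E2F8 lay farther upstream than at the other genes in either group.

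**Figure D2:**
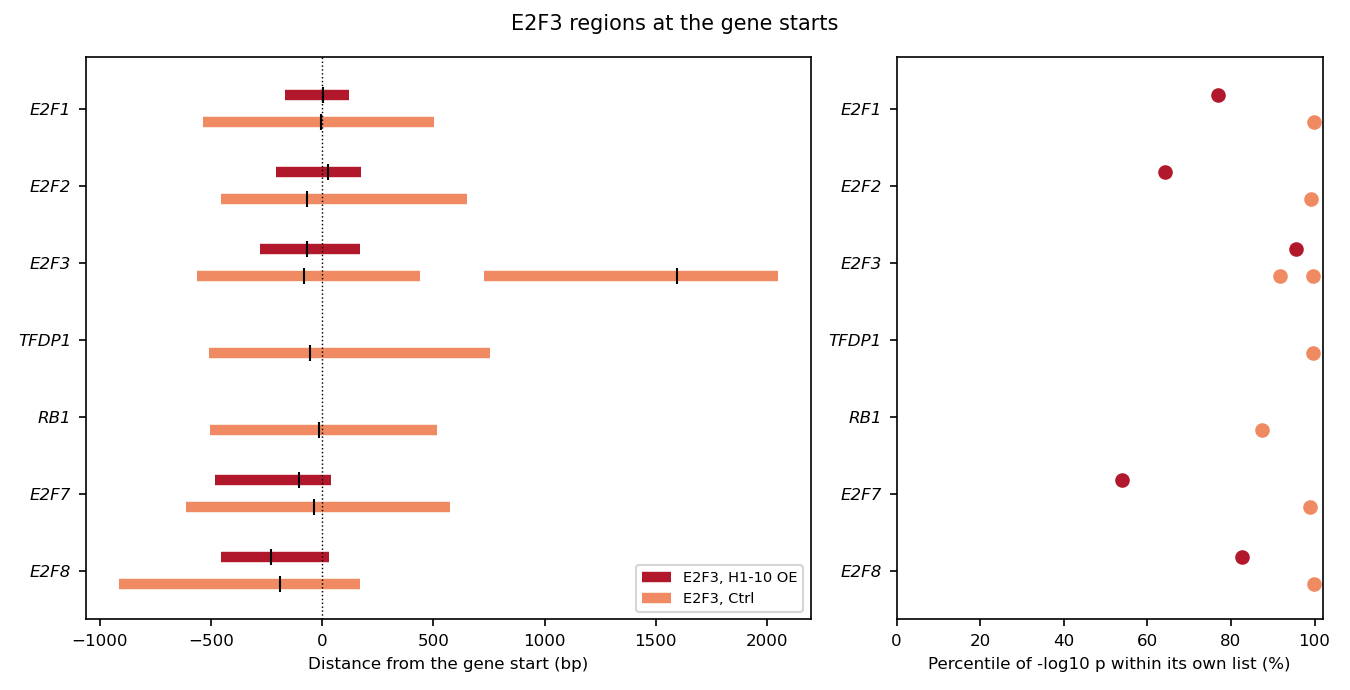
E2F3 regions at the gene starts, H1-10 OE above Ctrl, with bars for the extent in bp and ticks for summits on the left, and the percentile of -log10 p within the region's own list on the right. Each H1-10 OE bar lies inside a Ctrl bar, TFDP1 and RB1 have a Ctrl bar only, and the strongest Ctrl points run from 87.4% at RB1 to 99.9% at E2F8.

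Away from the starts, E2F3 regions were found in Ctrl only, 3 in all. The strongest lay past the end of E2F1 at chr20:32261956-32262876, with its summit 950 bp beyond the gene end, a fold of 32.5 and rank 1655. The next coding gene beyond that end is NECAB3, by the gene order of RefSeq. A body region of E2F2 with its summit at 2896 bp had a fold of 6.33, and a body region of RB1 with its summit at 87748 bp a fold of 6.44. Both folds were below the Ctrl median of 8.98. When the Ctrl list was limited to its 4296 strongest regions, 4 regions in Ctrl only were left: the starts of TFDP1 and RB1, the second region of E2F3 and that past the end of E2F1. The share of the whole list at that limit was not computed.

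Most E2F3 regions at these genes overlapped Pol2S5p. All 5 H1-10 OE regions overlapped Pol2S5p in each of the 4 lists, where of the whole H1-10 OE list of E2F3 30.2% met Pol2S5p of H1-10 OE, 13.0% that of Ctrl, 15.0% that of siE2F3 and 18.2% that of siCtrl. Of the 11 Ctrl regions, 9 overlapped Pol2S5p of H1-10 OE, against 64.6% of the whole Ctrl list of E2F3. The same 10 overlapped Pol2S5p of Ctrl, siE2F3 and siCtrl, against 68.0% of the whole list for Ctrl, 67.8% for siE2F3 and 70.6% for siCtrl. Most of these member regions lie at gene starts, which was not matched in the whole lists. The exceptions were the body region of RB1, which met no Pol2S5p region, and the body region of E2F2, which met none in H1-10 OE. Peak names of the E2F3 and siRNA lists carry another folder label than those of Pol2S5p in H1-10 OE and Ctrl, and the effect of that on these overlaps was not tested.

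Pol2S5p was present at the start of every member in H1-10 OE and in Ctrl, and what varied was how far it reached. How many genes outside the 7 carry a Pol2S5p region at the start was not counted. Covered length was lower in H1-10 OE at 5 genes and higher at E2F1 and E2F3. RB1 was also higher in H1-10 OE with the spans not widened, and with spans widened by 10 kb E2F3 alone was higher. The regions at the 7 genes covered 32.7 kb in H1-10 OE and 50.5 kb in Ctrl, a ratio of 0.648, beside 0.909 for the whole lists. In H1-10 OE only were 16 of 40 regions (40.0%, 26.3% to 55.4%), near the 42.8% of the whole list. In Ctrl only were 21 of 38 (55.3%, 39.7% to 69.9%), against 41.0% of the whole list, which lies inside that interval. All regions at gene starts were shared. Over the whole lists 98.4% of H1-10 OE and 98.2% of Ctrl regions in the strongest 10% were shared. In the weaker 50% these shares were 35.4% in H1-10 OE and 35.2% in Ctrl. Sharing of strong regions is therefore not particular to these genes.

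E2F2 carried most of the difference in covered length. Its Pol2S5p regions covered 4.76 kb in H1-10 OE and 18.5 kb in Ctrl. In Ctrl the start region was 4407 bp wide and reached 3783 bp into the gene, 9 smaller regions followed along the body, and a region of 8125 bp crossed the gene end. In H1-10 OE the start held 2 regions of 1435 and 622 bp, the body 3, and the stretch past the end 2. Without E2F2 the other 6 genes covered 27.9 kb in H1-10 OE and 32.0 kb in Ctrl, a ratio of 0.874. The siCtrl list, whose peak names also carry H1-10 overexpression, covered 21.0 kb at E2F2, in a longer list.

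E2F3 had the opposite order. Pol2S5p covered 7.50 kb of it in H1-10 OE and 4.05 kb in Ctrl. The start region was 4321 bp wide in H1-10 OE, with its summit at 15 bp, a fold of 21.3 and rank 656, and 3345 bp wide in Ctrl, with its summit at 32 bp, a fold of 16.3 and rank 2843. It was the only start region of the 7 that was wider in H1-10 OE. It spans the second E2F3 region of Ctrl in both lists. The 7 body regions in H1-10 OE and the 2 in Ctrl did not overlap each other, and each ranked in the weaker 50% of its list.

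E2F1 was covered over 9.11 kb in H1-10 OE and 7.30 kb in Ctrl. Its start regions were 1606 bp wide in H1-10 OE and 1713 bp in Ctrl. The strongest Pol2S5p region at E2F1 was not at its start but across its end, with summits 886 bp past the end in H1-10 OE and 922 bp in Ctrl, close to the E2F3 summit found there in Ctrl. That region ranked 3109 of 40626 in H1-10 OE and 1851 of 35493 in Ctrl. The next coding gene beyond that end is NECAB3. Its distance was not measured, so the region and its covered length cannot be assigned to E2F1 alone. In H1-10 OE 3 body regions had no Ctrl partner, at 24.3%, 27.9% and 49.5% of the list by -log10 p. The last of these had a fold of 5.82, above the list median of 5.51. No Ctrl region at E2F1 lacked an H1-10 OE partner.

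TFDP1, without an E2F3 region in H1-10 OE, kept Pol2S5p at its start there. The start region was 1513 bp wide in H1-10 OE and 1599 bp in Ctrl, with summits at -248 bp in both. Covered length was 5.65 kb in H1-10 OE and 10.2 kb in Ctrl, and the difference lay in small body regions and past the end, where a Ctrl region of 5290 bp faced 4 shorter H1-10 OE regions. RB1 likewise kept its start region, 1678 bp wide in H1-10 OE with its summit at -85 bp and rank 608, and 1909 bp wide in Ctrl with its summit at -90 bp and rank 1990. Neither list had another Pol2S5p region over the 178 kb of RB1.

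The repressors were covered less in H1-10 OE. E2F7 had 1.26 kb in H1-10 OE, all in its start region, and 1.79 kb in Ctrl, of which the start region took 1424 bp. Its summit was at 45 bp in H1-10 OE and at -256 bp in Ctrl. E2F8 had 2.76 kb in H1-10 OE and 6.75 kb in Ctrl. There 3 Ctrl body regions had no H1-10 OE partner, and 1 H1-10 OE body region had no Ctrl partner. Over the whole lists 41.0% of Ctrl regions and 42.8% of H1-10 OE regions had none. The start region of E2F8 was 1903 bp wide in H1-10 OE with its summit at 0 bp, and 2522 bp wide in Ctrl with its summit at -422 bp.

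**Figure D3:**
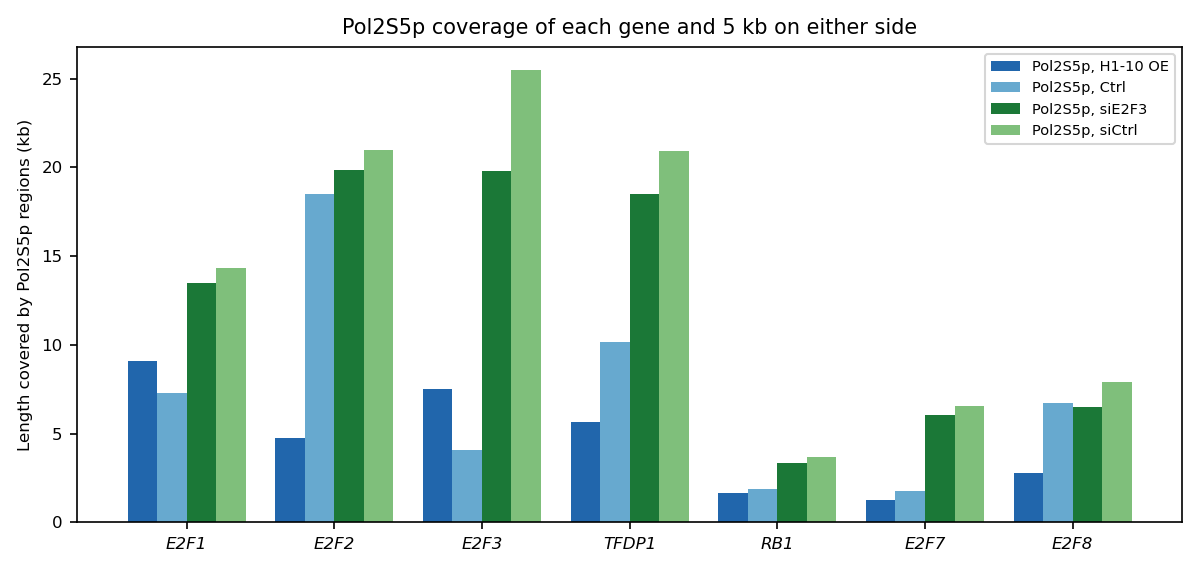
Length in kb covered by Pol2S5p regions within each gene and 5 kb on either side, as bars per list with no error because each is 1 library. E2F2 shows the largest gap between H1-10 OE (4.76 kb) and Ctrl (18.5 kb), E2F3 and E2F1 are the genes where H1-10 OE is the higher bar, and siE2F3 is below siCtrl at all 7 genes.

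The siRNA pair asks where Pol2S5p lies when E2F3 is targeted. All 7 genes kept a start region, and all 7 were covered less with siE2F3. The ratio by gene ran from 0.775 (E2F3) to 0.9465 (E2F2), and only the sum was set beside the whole lists. With regions within 1 kb merged, E2F2 and RB1 were covered more with siE2F3, and with the spans not widened E2F1 was covered fully in both lists. The genes summed to 87.5 kb with siE2F3 and 99.8 kb with siCtrl, a ratio of 0.876, beside 0.885 for the whole lists. With siE2F3 only were 23 of 83 regions (27.7%, 19.2% to 38.2%), against 22.9% of the whole list. With siCtrl only were 23 of 77 (29.9%, 20.8% to 40.8%), against 30.6%. Both intervals contain the share of the whole list. Merging regions within 1 kb left 7 with siE2F3 only and 12 with siCtrl only, and the shares of the merged whole lists were not computed.

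E2F3, the gene named by the siRNA, had the lowest ratio of the 7, with 19.8 kb covered with siE2F3 and 25.5 kb with siCtrl, a ratio of 0.775. Its start differed little. The start region was 4066 bp wide with siE2F3, with its summit at 62 bp, a fold of 43.4 and rank 177, and 4267 bp wide with siCtrl, with its summit at 24 bp, a fold of 38.2 and rank 186. No other member ranked as high at its start in either list. The gap lay in the body and past the end, where siE2F3 had 24 body regions and 3 past the end and siCtrl had 22 and 2. Some of these were longer with siCtrl, such as 1 of 3718 bp that faced 2 of 2283 and 407 bp with siE2F3 in the first part of the gene. An siRNA acts on the mRNA, and the mRNA was not measured in these files.

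E2F1 was covered from its start past its end by a single region in both lists, 13113 bp wide with siE2F3 and 13694 bp with siCtrl. The summit of that region lay at 56 bp with siE2F3 and at 11952 bp, past the gene end, with siCtrl. E2F2 covered 19.8 kb with siE2F3 and 21.0 kb with siCtrl, and its start region was 4837 bp wide with siE2F3 and 4429 bp with siCtrl. TFDP1 covered 18.5 kb with siE2F3 and 20.9 kb with siCtrl. Its start held 2 regions in each list. That across the gene start was 6194 bp wide with siE2F3 and ended 5622 bp into the gene, and with siCtrl it was 1678 bp wide and ended at 1101 bp, where a body region of 5343 bp followed after a short gap. The other lay upstream, 2094 bp wide with its summit at -1093 bp and a fold of 7.09 with siE2F3, and 2208 bp wide with its summit at -1409 bp and a fold of 10.0 with siCtrl.

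RB1 covered 3.35 kb with siE2F3 and 3.66 kb with siCtrl. Its start region was 1932 bp wide with siE2F3 and 1642 bp with siCtrl. Both lists held a region in the body of RB1, with its summit at 13404 bp with siE2F3 and 13866 bp with siCtrl, which had no counterpart in the H1-10 OE and Ctrl lists. E2F7 covered 6.03 kb with siE2F3 and 6.58 kb with siCtrl, and its start region was 1227 bp wide with siE2F3 and 1766 bp with siCtrl.

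E2F8 covered 6.53 kb with siE2F3 and 7.90 kb with siCtrl, a ratio of 0.826, second lowest after E2F3. Its start region was 2598 bp wide with siE2F3, with its summit at -595 bp and a fold of 6.27, and 2777 bp wide with siCtrl, with its summit at -429 bp and a fold of 18.8. It ranked 12066 of 83067 with siE2F3 and 7015 of 83650 with siCtrl. These ranks describe each list and carry no error.

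**Figure D4:**
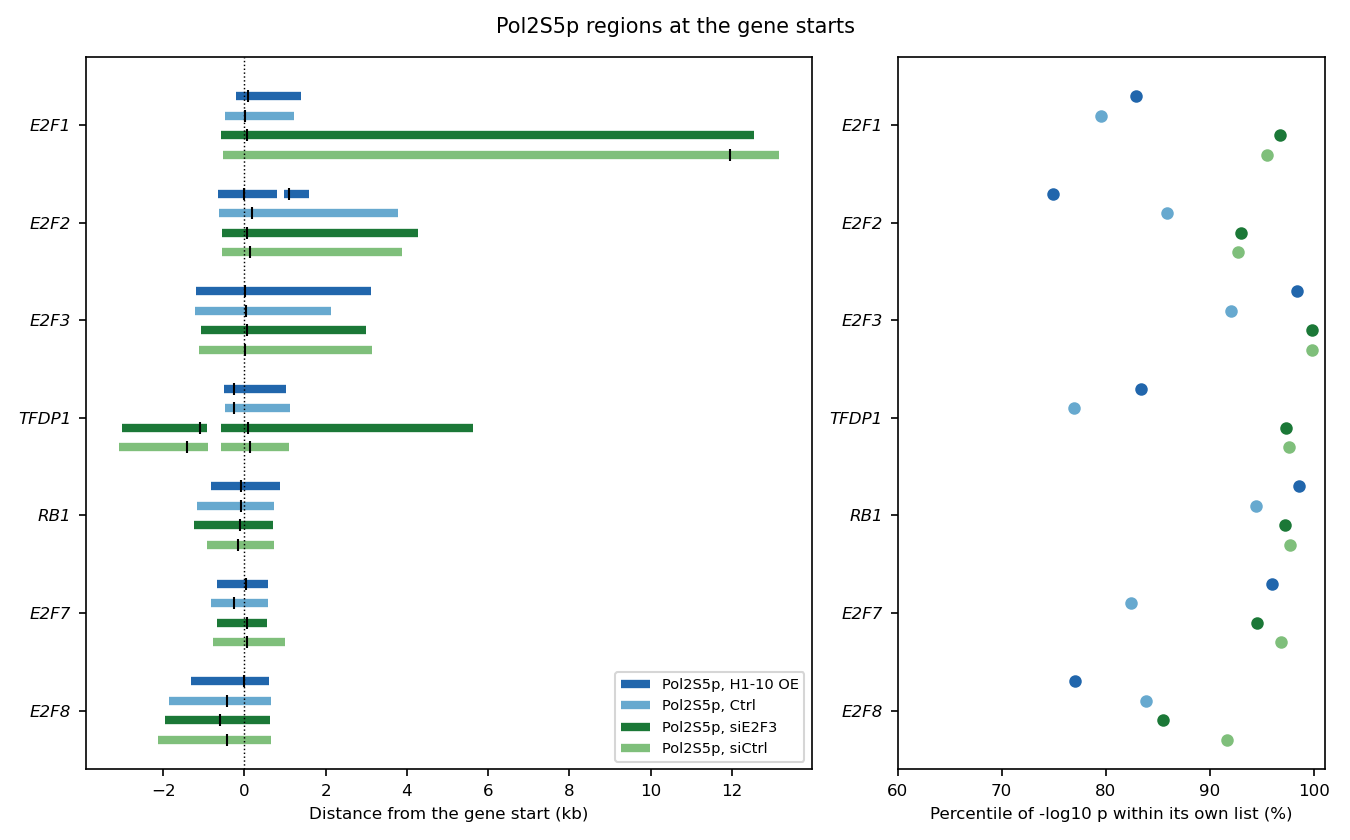
Pol2S5p regions at the gene starts in the 4 lists, with extent in kb and summits as ticks on the left, and on the right the percentile of -log10 p of each gene's strongest start region within its own list (axis from 60%). All 7 genes have a start region in every list, and E2F1 with either siRNA is a single region across the whole gene.

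Start regions of Pol2S5p ranked above most other regions at these genes. The strongest at each gene stood between 74.9% and 98.5% of its list in H1-10 OE, 77.0% and 94.4% in Ctrl, 85.5% and 99.8% with siE2F3, and 91.6% and 99.8% with siCtrl. With every start region counted, the lowest stood at 31.6% in H1-10 OE (E2F2), and at 74.5% with siE2F3 and 79.8% with siCtrl (both TFDP1). Median percentiles of all start regions were 83.1% in H1-10 OE, 83.9% in Ctrl, 95.6% with siE2F3 and 96.2% with siCtrl. The siRNA values include the single region across E2F1, whose summit with siCtrl lay 1034 bp past the gene end. Regions elsewhere at these genes had median percentiles of 21.4% in H1-10 OE, 25.9% in Ctrl, 44.0% with siE2F3 and 42.3% with siCtrl. At E2F1 the region across the gene end outranked the start, at 92.3% in H1-10 OE and 94.8% in Ctrl. With a -log10 q of at least 5 required, 4 Pol2S5p regions were left in H1-10 OE only and 5 in Ctrl only. The shares of the whole lists at that threshold were not computed.

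H3K27me3 was listed at none of the 7 genes in either group, so the mark gave no region to compare with the E2F3 or Pol2S5p regions there. How many genes outside the 7 also lack an H3K27me3 region was not counted. The nearest region to any of the gene spans lay before the start of E2F8, 104 kb away in H1-10 OE with a fold of 9.86 and 107 kb away in Ctrl with a fold of 4.72. Next came TFDP1, with a region 136 kb past its end in H1-10 OE and 138 kb in Ctrl. At the other 5 genes the nearest region lay between 418 kb (E2F3) and 18967 kb (RB1) in H1-10 OE, and between 794 kb (E2F2) and 17084 kb (E2F7) in Ctrl. The H3K27me3 lists cover 10.1 Mb in H1-10 OE and 1.52 Mb in Ctrl, so a gene outside their regions may still carry the mark below the authors' threshold.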

How the data were processed

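Peak lists of 8 ChIP-seq libraries of 22Rv1 were used, 1 per library, grouped by their labels. The tools named in the submitters' processing notes are FastQC, fastp and Bowtie, with hg19 as build. Their versions, the caller of the peaks, the cutoff and the matching input were not given in the sources used here. For every peak the authors deposited a score, a ratio (fold enrichment over background at the summit), the -log10 of p and of q, and where in the peak the summit lies. The score equalled 10 times the -log10 q, rounded down, in at least 99.9972% of regions of every list, so it added nothing and was not used further.

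Members were found by overlap with hg19 spans widened by 5 kb. Regions overlapping by at least 1 bp were shared. Joining rows that touched changed no list. The strand of each gene came from RefSeq or, for E2F8, from textbook knowledge. Gene starts are the 5′ edges of the spans. The genes, spans and settings were chosen with earlier results of these data known. All regions at gene starts are described, and elsewhere mainly those of highest -log10 q. A planned list of other network genes and of prostate markers needs an annotation of hg19 and was not analysed here. No p-value was computed. The overlap code was tested on simulated data and checked against bedtools 2.31.1, which gave equal numbers in 8 of 8 counts. Work was done in Python 3.11.15 (numpy 2.4.6; pandas 2.3.3; scipy 1.17.1) with plots by matplotlib 3.10.9. Alternatives were keeping only -log10 q values of 5 or more, cutting both lists to the same number of strongest regions, 50% reciprocal overlap, regions within 1 kb merged, spans not widened or widened by 10 kb, and starts of 500 bp or 2 kb on either side. A comparison of siCtrl with Ctrl for Pol2S5p, the covered lengths and their ratios, the strength classes and the sums without E2F2 were added after the data were seen.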

Additional observations from a re-analysis of the deposited data

How the results depend on the processing

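Each count was recomputed under the alternatives, and 69 of 82 values were within 1.5 times the reported count. H3K27me3 counts were 0 under every setting, and the number of genes with a region at the start changed in no list. All 13 values that moved were counts of E2F3 or Pol2S5p regions in 1 list only. The total of 69 therefore says little about how stable those counts are. With 50% reciprocal overlap, E2F3 regions in H1-10 OE only numbered 5 and those in Ctrl only 11, Pol2S5p regions in H1-10 OE only 32, and regions with siE2F3 only 47 and with siCtrl only 41. With a -log10 q of at least 5, Pol2S5p regions in H1-10 OE only numbered 4 and in Ctrl only 5, with siE2F3 only 15 and with siCtrl only 14. Merging regions within 1 kb left 7 with siE2F3 only and 12 with siCtrl only. With siCtrl set against Ctrl instead of H1-10 OE, 48 of 77 Pol2S5p regions were in siCtrl only and 7 of 38 in Ctrl only. For none of these alternative counts was the share of the whole lists computed, so they cannot be told apart from list-wide behaviour. Covered length moved by more than 1.5 times with the spans not widened, to 0.544 kb of E2F3 in H1-10 OE and 5.82 kb in Ctrl, and to 20.7 kb of Pol2S5p in H1-10 OE and 30.5 kb in Ctrl. The ratio at the genes ranged over all settings between 0.0935 and 0.214 for E2F3, between 0.590 and 0.703 for Pol2S5p in H1-10 OE over Ctrl, and between 0.868 and 0.911 for siE2F3 over siCtrl. Stricter thresholds and merging leave fewer regions by construction, and the siCtrl list is longer; other causes were not tested. No paired analysis was possible because each group is 1 library, and no replicate could be left out. Unknown read depth and unequal list lengths limit every statement about a region that is missing from a list.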
